A study of Mus musculus with 13 samples.

Results

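The regions described here are 346 open-chromatin peaks that were more accessible at a second LPS challenge than at a first one, both in mouse microglia that had never been depleted and in microglia that had repopulated the brain. They were chosen by their measured values. CPM (a peak's count over the library's total count in peaks, scaled to 1000000) was averaged over the libraries of a group, and its log2 after adding 1 had to be 0.4 or more higher in LL (second LPS) than in PL (first LPS), and likewise in LBL than in PBL after depletion with BLZ945. Peaks with a mean count under 20 and peaks on X and Y could not enter, which left 25307 of 38620 peaks. The 346 members are 1.37% of those 25307. In the vehicle arm 1193 peaks met the difference, in the BLZ945 arm 2280 did, and in the opposite direction 323 peaks were lower by 0.4 or more in both arms.

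The libraries came from sorted brain microglia of male C57BL/6J mice aged 15 weeks, with 2 animals pooled per library and 40000 cells taken from each animal, in a gate of high CD11b, intermediate CD45 and no Ly6c. Mice had LPS, the endotoxin of Gram-negative bacteria, at 1 mg/kg or PBS at 10 weeks of age, then BLZ945 or its vehicle from a week later, and LPS or PBS again 5 weeks after the first injection. BLZ945 inhibits CSF1R, the receptor that microglia need to survive, and was dosed daily at 169 mg/kg over 5 days, after which new microglia refill the brain. Tissue was taken 3 hours after the last injection. LL had LPS both times and vehicle between, PL had PBS and then LPS with vehicle between, and PP had PBS both times and vehicle between. LBL had LPS both times and BLZ945 between, PBL had PBS and then LPS with BLZ945 between, and PBP had PBS both times and BLZ945 between. PBL had 3 libraries and each other group 2.

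In ATAC-seq a transposase inserts where DNA is not wrapped in nucleosomes, so a peak marks a promoter or a distal element that proteins can reach. In microglia, distal elements are opened by the lineage factor PU.1 with partner factors, and identity genes such as Sall1 are known to depend on the brain environment. LPS signals through Toll-like receptor 4, and a first exposure can leave macrophages tolerant or primed for the next one.

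Promoter peaks, within 1 kb of a start site in the deposited annotation, made up 45 of the members. Among all members, 14 overlapped the RefSeq promoter window of their own gene on the same build, GRCm38, counted once per gene. The 250 bases before the start site are shown for 5 of the 14, so that the sequence under or beside the peak can be read. Klhl6 (a kelch protein), Crybb1 (a crystallin), Tifab (a relative of the TRAF6 adaptor TIFA), Tlr6 (a Toll-like receptor that pairs with TLR2) and Tlr3 (the receptor for double-stranded RNA) were picked after their values were seen. The windows are chr16:19983050-19983299, minus strand (Klhl6), chr5:112255570-112255819, plus strand (Crybb1), chr13:56178886-56179135, minus strand (Tifab), chr5:64960049-64960298, minus strand (Tlr6) and chr8:45410381-45410630, minus strand (Tlr3). The peak covered 250 of these bases at Klhl6, 250 at Crybb1, 196 at Tifab, 160 at Tlr6 and 100 at Tlr3. Capitals mark letters that match a searched motif on either strand.
Klhl6: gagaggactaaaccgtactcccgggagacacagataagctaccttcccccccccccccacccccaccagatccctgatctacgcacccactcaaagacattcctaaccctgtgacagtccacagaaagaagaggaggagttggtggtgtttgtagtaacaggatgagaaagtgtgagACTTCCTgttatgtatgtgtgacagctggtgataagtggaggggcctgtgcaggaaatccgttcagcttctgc
Crybb1: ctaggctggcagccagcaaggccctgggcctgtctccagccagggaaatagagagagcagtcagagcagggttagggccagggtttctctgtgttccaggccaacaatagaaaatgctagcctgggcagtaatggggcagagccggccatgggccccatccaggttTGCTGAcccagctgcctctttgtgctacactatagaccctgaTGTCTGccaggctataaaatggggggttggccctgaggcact
Tifab: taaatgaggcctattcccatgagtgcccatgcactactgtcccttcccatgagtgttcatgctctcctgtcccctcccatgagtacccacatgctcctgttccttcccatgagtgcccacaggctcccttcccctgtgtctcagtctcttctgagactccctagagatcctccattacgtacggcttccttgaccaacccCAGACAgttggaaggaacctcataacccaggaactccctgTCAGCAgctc
Tlr6: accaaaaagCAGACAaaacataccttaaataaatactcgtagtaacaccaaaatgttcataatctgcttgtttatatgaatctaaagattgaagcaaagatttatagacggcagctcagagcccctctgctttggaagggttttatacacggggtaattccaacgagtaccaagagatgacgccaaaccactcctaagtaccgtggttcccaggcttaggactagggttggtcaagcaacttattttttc
Tlr3: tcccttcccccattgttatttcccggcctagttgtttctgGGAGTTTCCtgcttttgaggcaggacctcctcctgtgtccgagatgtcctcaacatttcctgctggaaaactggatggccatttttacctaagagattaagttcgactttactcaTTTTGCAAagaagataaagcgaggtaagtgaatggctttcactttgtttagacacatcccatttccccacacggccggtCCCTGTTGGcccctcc

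Positions are counted backwards from -1, the last base before the start site. Klhl6 held the ETS core AGGAAGT from -73. Crybb1 held the MAF element TGCTGA from -84 and the SMAD element CAGACA from -42, and Tifab held them from -10 and -50. Tlr6 held the SMAD element from -241, outside its peak. Tlr3 held the NF-kB letters GGANTTTCC from -210, the C/EBP letters TTGCNNAA from -95 and the CTCF letters CCANNAGGG from -16, and the NF-kB letters lay outside its peak. The other matches in these 5 windows were inside the peaks. Of the 14 member windows 4 held the MAF element, against 16.1% of all 32817 RefSeq windows, 4 the SMAD element, against 17.1%, 3 the C/EBP letters, against 9.57%, and 1 the ETS core, against 7.69%. NF-kB letters were in 1, against 1.07%, CTCF letters in 1, against 5.07%, and the SP/KLF box GGGGCGG in 1, against 21.0%. Interferon regulatory factor letters (GAAANNGAA) were in 2, against 7.12%, glucocorticoid receptor letters (ACANNNTGT) in 2, against 5.84%, and the E-box CACGTG in 2, against 6.02%. The searched letters of AP-1 (TGANTCA, 6.75% of all windows), PU.1 (GAGGAAGT, 2.44%), STAT (TTCNNNGAA, 7.01%), CRE (TGACGTCA, 1.55%), RUNX (TGTGGTT, 4.39%), MEF2 (CTATTTATA, 0.387%), EGR (GCGTGGGCG, 0.536%) and NRF1 (GCGCATGCG, 1.44%) were in 0 of the 14. The ETS core, contained in the PU.1 letters, was added after the values were seen.

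Depth was 927893 to 2772620 counts in peaks per library. LL, LBL and PBL went through an XDP sorter, and PL, PP and PBP through an Astrios sorter. The isolation days of LL, LBL and PBL were used for no other group, and the PL libraries were isolated with PBP (PL 1_2) or PP (PL 3_4). Day and group therefore cannot be told apart in LL against PL or in LBL against PBL. LL against PL also crosses sorters. Sorter and day both differ in LL against PP and in PBL and LBL against PBP, so neither can be told apart from LPS there. Promoter peaks took 53.2% of the counts in PL 3_4, against 55.5% to 60.1% in the other libraries. The LBL pair differed by less than counting noise (chi-square per degree of freedom 0.974); the PP pair had 1.01 and the PL pair 1.83. PBL 3_4 and PBL 4_5 both carry animal number 4, and whether they share that animal is not stated. Promoter accessibility summed over 9 of 11 microglia markers was 458 to 472 CPM in LL, 421 to 443 CPM in PL and 504 to 531 CPM in PP, and 437 to 479 CPM in LBL, 391 to 433 CPM in PBL and 579 to 583 CPM in PBP. Fcrls and Gpr34 had no promoter peak.

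The median member had 20.6 CPM in LL, 13.6 CPM in PL and 16.4 CPM in PP, and 21.0 CPM in LBL, 13.2 CPM in PBL and 18.1 CPM in PBP. Over all 25307 filtered peaks the group medians lay between 26.1 and 27.3 CPM. By library, the median over the members was 20.9 and 20.6 CPM in LL, 12.7 and 14.5 CPM in PL, and 17.0 and 16.7 CPM in PP, and 22.0 and 20.7 CPM in LBL, 12.8, 14.1 and 13.9 CPM in PBL, and 17.5 and 19.4 CPM in PBP. The medians of the PBS libraries stood between those of the first and the second challenge in both arms. In bulk libraries, fewer cells with an open site and less opening per cell cannot be told apart. Choosing peaks that are low in PL and PBL favours values below PBS there, and choosing peaks that are high in LL and LBL favours values above it. A PBS level in between is therefore favoured by the rule. In the peaks lower in both arms PBS also lay between. Their medians were 13.9 CPM in LL, 21.4 CPM in PL and 15.9 CPM in PP, and 12.9 CPM in LBL, 21.7 CPM in PBL and 13.4 CPM in PBP.

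**Figure D1:**
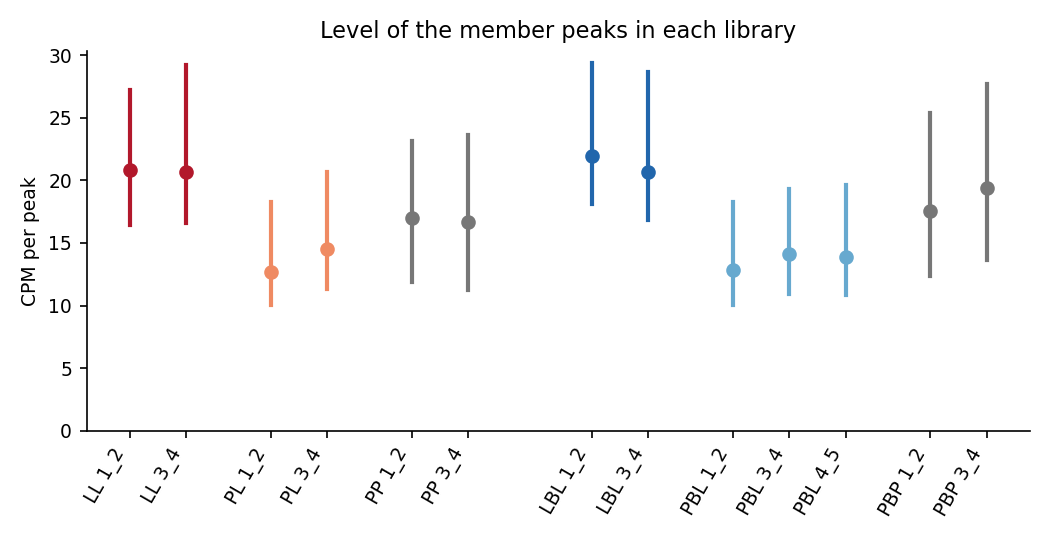
Level of the 346 members in each of the 13 libraries, in CPM. Library medians were 20.6 to 22.0 CPM at the second challenge, 12.7 to 14.5 CPM at the first and 16.7 to 19.4 CPM after PBS.

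The median difference in log2(CPM + 1), which the rule set at 0.4 or more, was 0.51 for LL minus PL and 0.58 for LBL minus PBL. The libraries of LL lay above those of PL without overlap at 315 members, where 16.9% of filtered peaks did, those of LBL above those of PBL at 309, where 17.1% did, and both at 281, where 4.43% did. edgeR's quasi-likelihood test with Benjamini-Hochberg adjustment called 2 members higher in LL than in PL, where 0.0133% of 37516 tested peaks were called, and 65 higher in LBL than in PBL, where 0.973% were called. All of these counts come from the contrasts that chose the members and are given as description. Just inside the threshold were peaks at Mvb12b, Foxn3, Cstad and Slc10a7, whose smaller difference was 0.4002 to 0.4027. Just outside it were peaks at Lrp1, Plxna4os1, Fscn1, Txndc11 and Snora65, at 0.3970 to 0.3995.

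Most members lay away from promoters. Introns held 164 (47.4%, against 26.1% of filtered peaks), distal intergenic sequence 108 (31.2% against 20.3%), promoters 45 (13.0% against 46.6%) and exons 19 (5.49% against 4.64%). Of the 323 peaks lower in both arms, 25.1% were promoter peaks and 32.8% intronic. The median distance to the nearest start site was 10921 bp for members and 1771 bp for filtered peaks, and 72 members (20.8% against 8.14%) lay more than 50 kb away. Members were narrower, with a median width of 426.5 bp against 563 bp, and weaker, with a median of 29.5 counts per library against 47.2. They came from the weakest peaks most often, since 2.84% of the filtered peaks in the lowest level bin of 4 were members and 0.174% in the highest. For the peaks lower in both arms these shares were 2.64% and 0.158%. The members' nearest start sites belonged to 310 genes on all 19 autosomes, and 71 members had another within 50 kb.

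**Figure D2:**
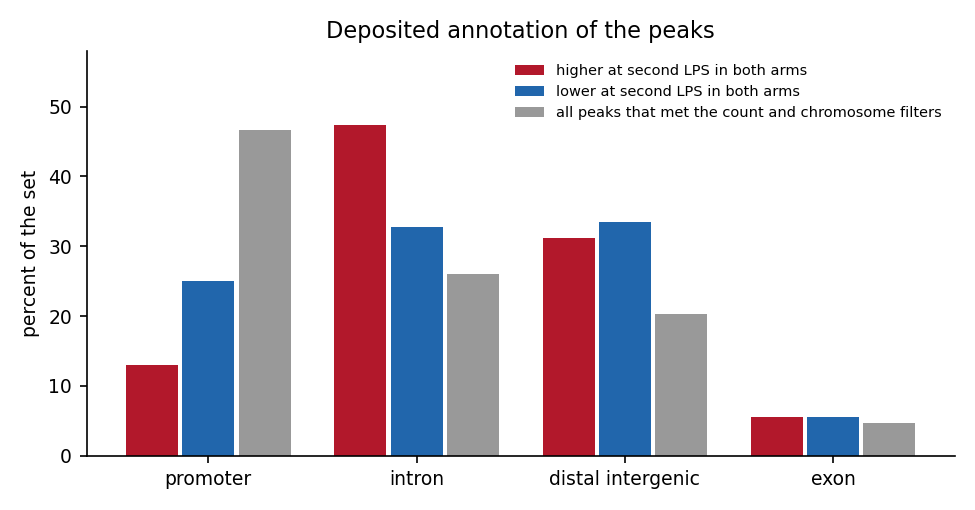
Percent of each set of peaks by deposited annotation, for the 346 members, the 323 peaks lower at the second challenge in both arms and all 25307 filtered peaks. Promoters were 13.0% of members, 25.1% of peaks lower in both arms and 46.6% of filtered peaks.

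Set against PBS, the members split. In the vehicle arm PP lay between PL and LL at 156 members, at or below PL at 111 and at or above LL at 79. In the BLZ945 arm PBP lay between PBL and LBL at 169, at or below PBL at 74 and at or above LBL at 103. The rule set a gap of 0.4 or more between the challenges, which favours PBS in between. These positions were not counted for other peaks, so nothing particular to the members is read from them. PL minus PP was -0.4 or less at 120 members, against 16% of filtered peaks, and 0.4 or more at 33, against 18.9%. In the next counts the percent in parentheses is again that of filtered peaks. PBL minus PBP was -0.4 or less at 169 (10.7%) and 0.4 or more at 25 (14%). At the second challenge LL minus PP was 0.4 or more at 149 (18.1%) and -0.4 or less at 18 (14%), and LBL minus PBP was 0.4 or more at 119 (14.8%) and -0.4 or less at 31 (8.77%). These contrasts contain the groups that chose the members, and no test is given on them.

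Using 0.4 in both arms, 58 members (16.8%) were below PBS at the first challenge and within 0.4 of it at the second, and 45 (13.0%) were within 0.4 of PBS at the first and above it at the second. A further 15 (4.34%) were above PBS at the first and higher again at the second, and 228 had none of these patterns in both arms. Among the 25307 filtered peaks the same 3 patterns held 234, 167 and 2171 peaks, the last without the requirement of a further increase.

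**Figure D3:**
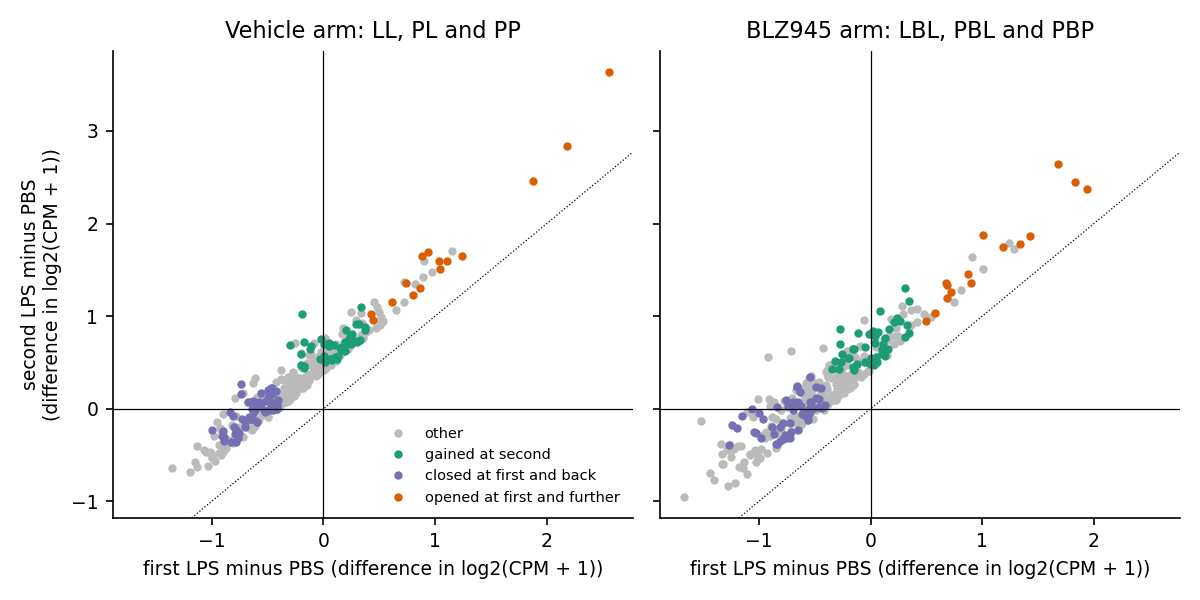
Each member's difference from PBS in log2(CPM + 1) at the first challenge (horizontal) and at the second (vertical), with the vehicle arm and the BLZ945 arm in separate panels and the 3 patterns coloured. First-challenge medians were -0.22 in the vehicle arm and -0.39 in the BLZ945 arm, and second-challenge medians 0.31 and 0.21.

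The 58 peaks below PBS at the first challenge and back at the second had medians of 19.8 CPM in LL, 12.5 CPM in PL and 21.2 CPM in PP, and 20.4 CPM in LBL, 12.8 CPM in PBL and 22.8 CPM in PBP. An exon peak of Gfm2, a mitochondrial elongation factor (chr13:97173945-97174521), had 42.2 and 46.5 CPM in LL, 30.7 and 26.6 CPM in PL, and 41 and 44.4 CPM in PP. It had 53.6 and 44.8 CPM in LBL, 25.3, 26.1 and 26.7 CPM in PBL, and 37.2 and 45.9 CPM in PBP. All 5 first-challenge libraries stood below all 8 others. Gfm2 was named after its values were seen.

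Homeostatic microglia genes had 6 members among 156 filtered peaks within 50 kb of their start sites (3.85%, against 1.37% of all filtered peaks). They had 0 among the peaks lower in both arms, which were 1.28% of all filtered peaks. The 6 lay at 5 of the 34 genes with a peak, with 2 at Mertk and 1 each at Selplg, Siglech, Slco2b1 and Tgfbr2. Their median was -0.62 for PL minus PP and 0.11 for LL minus PP, and -0.53 for PBL minus PBP and 0.02 for LBL minus PBP. Over all 346 members these 4 medians were -0.22, 0.31, -0.39 and 0.21. Values were below 0 at 6 of 6 for PL minus PP and at 4 of 6 for PBL minus PBP. Among all 346 members they were below 0 at 235 and 272. The rule favours low values in PL and PBL, so nothing is read from these counts. All filtered peaks include promoter peaks, which were seldom members, and none of the 6 was a promoter peak. Outside promoters, members were 3.22% of filtered peaks in the lowest level bin of 4, then 2.12%, 1.42% and 0.672%. No gene list was matched to all filtered peaks for annotation or level. Leaving out each library in turn, the list had 5 to 8 members (3.23% to 5.10%), against 1.31% to 2.64% of all filtered peaks. The ratio of the 2 shares was lowest without PL 3_4, at 4.49% against 2.64%. Of the 6 peaks, only that in Mertk intron 1 met the rule every time. Mertk intron 4 left the set without LBL 3_4 or LL 3_4, and Selplg without PL 1_2 or LL 3_4. Slco2b1 left it without PBL 3_4, PL 3_4 or LBL 3_4, and Tgfbr2 without LBL 3_4.

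Siglech, which encodes a lectin of microglia, had its member 2457 bp upstream (chr7:55765296-55765721), with 17.4 and 24.4 CPM in LL, 16.2 and 11.8 CPM in PL, and 21 and 24.2 CPM in PP. It had 20.7 and 16.1 CPM in LBL, 11.4, 8.86 and 12.8 CPM in PBL, and 21.2 and 21.3 CPM in PBP. PL lay below PP and PBL below PBP without overlap, and the peak did not meet the rule without PL 3_4 or without LL 3_4. Mertk, a receptor for engulfing dying cells, had a member in intron 4 (chr2:128747459-128747893), with 25.6 and 32.1 CPM in LL, 20.4 and 21.5 CPM in PL, and 35.6 and 36.9 CPM in PP. It had 26.5 and 30.7 CPM in LBL, 18.7, 20.9 and 21.8 CPM in PBL, and 26 and 42.5 CPM in PBP. The PP libraries were above the LL libraries there, so LL was between PL and PP. A second Mertk peak in intron 1 (chr2:128709415-128709780) averaged 14.8 ± 0.506 CPM in LL, 7.21 ± 3.1 CPM in PL and 11.6 ± 4.96 CPM in PP, and 18 ± 3.35 CPM in LBL, 11.2 ± 1.39 CPM in PBL and 9.36 ± 1.26 CPM in PBP (SD, n = 3 for PBL and 2 for each other group). In that peak LBL was above both PBL and PBP.

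Selplg, which encodes a ligand of P-selectin, had its member 4309 bp upstream (chr5:113836953-113837297), at 25.4 ± 9.19 CPM in LL, 17.6 ± 4.39 CPM in PL and 19.5 ± 3.16 CPM in PP, and 30.6 ± 3.76 CPM in LBL, 19.6 ± 2.05 CPM in PBL and 33 ± 1.71 CPM in PBP (SD, n as above). LL and PL libraries overlapped. The transporter gene Slco2b1 had a member in intron 7 (chr7:99680617-99681239), at 28.5 ± 0.250 CPM in LL, 19.8 ± 2.92 CPM in PL and 31.3 ± 0.775 CPM in PP, and 27.5 ± 4.18 CPM in LBL, 19.3 ± 4.4 CPM in PBL and 24.9 ± 5.65 CPM in PBP. PBP overlapped PBL there, while PP was above LL and PL. Tgfbr2, a receptor of TGF-beta, on which microglial identity depends, had a member in intron 2 (chr9:116133479-116133900). It averaged 16.2 ± 1.48 CPM in LL, 8.94 ± 1.79 CPM in PL and 9.75 ± 6.93 CPM in PP, and 18.2 ± 5.62 CPM in LBL, 10.6 ± 3.48 CPM in PBL and 9.05 ± 4.74 CPM in PBP, with overlap between LBL and PBL and with PBS near the first challenge.

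Without the 50 kb limit, dropped after the values were seen, 9 of 189 peaks nearest to homeostatic genes were members (4.76%), adding 2 at Sall1 and 1 at Smad3. Sall1 is a transcription factor of microglial identity, and the pair lay 348560 bp and 352365 bp upstream of it. The nearer peak (chr8:89392722-89393163) had 35.5 and 36.9 CPM in LL, 21 and 30.6 CPM in PL, and 54.4 and 50.5 CPM in PP. It had 40.7 and 39.8 CPM in LBL, 29.8, 27.5 and 24.2 CPM in PBL, and 57.8 and 63.4 CPM in PBP. The second challenge lay between the first and PBS in both arms with no overlap. The farther peak (chr8:89396527-89397008) averaged 23.3 ± 0.699 CPM in LL, 16.2 ± 8.27 CPM in PL and 29.7 ± 13.8 CPM in PP, and 24.6 ± 1.72 CPM in LBL, 16.4 ± 3.16 CPM in PBL and 34.4 ± 9.32 CPM in PBP (SD, n as above). Neither peak met the rule without PL 1_2.

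**Figure D4:**
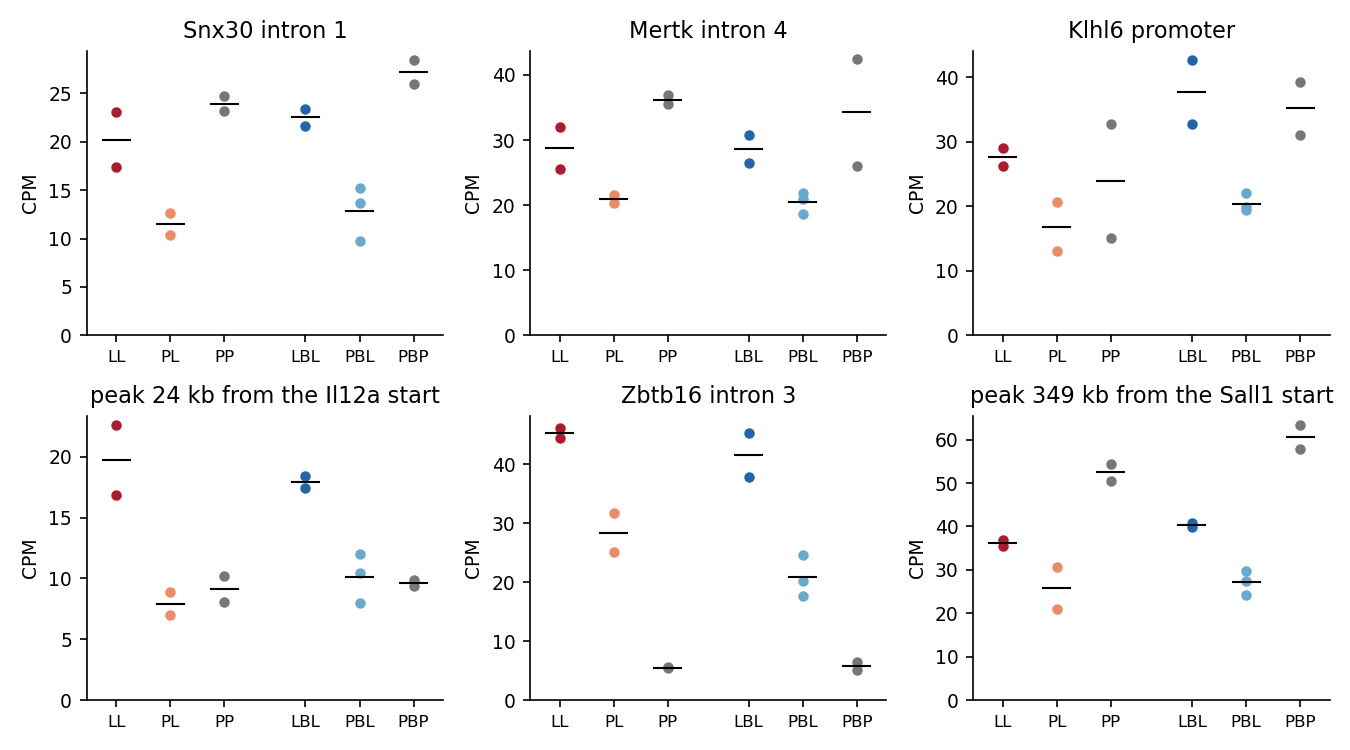
CPM in every library at 6 members, with points for libraries and bars for group means. PBS means were near or above the second challenge at Snx30 and at Mertk, near the first at the Il12a peak, below both at Zbtb16 intron 3 and above both at the Sall1 peak.

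Snx30, a sorting nexin gene, had a peak below PBS at the first challenge and back at the second in intron 1 (chr4:59823494-59823953) with 17.4 and 23 CPM in LL, 10.3 and 12.6 CPM in PL, and 23.2 and 24.7 CPM in PP. It had 21.6 and 23.4 CPM in LBL, 15.2, 13.6 and 9.74 CPM in PBL, and 26 and 28.5 CPM in PBP. Every first-challenge library was below every other library. The peak 44267 bp upstream of Ncoa3, a nuclear receptor coactivator (chr2:165947703-165948369), averaged 26.9 ± 2.21 CPM in LL, 15.7 ± 5.43 CPM in PL and 25.6 ± 0.437 CPM in PP, and 23.5 ± 3.32 CPM in LBL, 12.6 ± 4.19 CPM in PBL and 25.5 ± 7.1 CPM in PBP (SD, n = 3 for PBL and 2 for each other group). An exon peak of Rbm5, a splicing regulator (chr9:107747372-107747595), averaged 15.6 ± 3.6 CPM in LL, 9.08 ± 1.98 CPM in PL and 14.6 ± 1.41 CPM in PP, and 15.1 ± 4.25 CPM in LBL, 7.93 ± 1.28 CPM in PBL and 14.9 ± 3.58 CPM in PBP. Both followed the same pattern. So did intergenic peaks 121216 bp from Dleu2 (chr14:61803589-61804148) and 90811 bp from the glutamate transporter gene Slc1a3 (chr15:8801575-8802066). The first averaged 21.5 ± 6.07 CPM in LL, 11.9 ± 3.19 CPM in PL and 22.1 ± 3.78 CPM in PP, and 22 ± 0.449 CPM in LBL, 10.8 ± 1.06 CPM in PBL and 22.7 ± 0.411 CPM in PBP. The other averaged 16.2 ± 1.16 CPM in LL, 9.41 ± 0.364 CPM in PL and 14.3 ± 0.290 CPM in PP, and 19 ± 3.32 CPM in LBL, 8.55 ± 3.997 CPM in PBL and 19 ± 9.7 CPM in PBP.

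Strong peaks of the pattern lay 5215 bp from the Tifab start (chr13:56172865-56173586) and 6146 bp from Snord83b, a small nucleolar RNA gene (chr15:80071735-80072445). The Tifab peak averaged 55.3 ± 10.7 CPM in LL, 36 ± 4.95 CPM in PL and 63.4 ± 4.02 CPM in PP, and 61.5 ± 3.42 CPM in LBL, 45.4 ± 4.49 CPM in PBL and 77.1 ± 0.0273 CPM in PBP (SD, n as above). PBP was above LBL there. The Snord83b peak averaged 54.6 ± 9.5 CPM in LL, 39.6 ± 0.462 CPM in PL and 53.2 ± 9.72 CPM in PP, and 56.6 ± 1.31 CPM in LBL, 38 ± 2.56 CPM in PBL and 63.1 ± 10.6 CPM in PBP. The Klhl6 promoter (chr16:19982707-19983342), which holds the ETS core shown above, had 26.3 and 29.1 CPM in LL, 13 and 20.7 CPM in PL, and 15.1 and 32.8 CPM in PP. It had 42.6 and 32.7 CPM in LBL, 19.4, 22 and 19.8 CPM in PBL, and 39.3 and 31.1 CPM in PBP. The PP pair was wide and overlapped both LL and PL. The promoter of Lyl1, a blood-lineage transcription factor (chr8:84701203-84701831), averaged 44.4 ± 2.71 CPM in LL, 32.8 ± 6.18 CPM in PL and 57.3 ± 4.005 CPM in PP, and 54.4 ± 13.9 CPM in LBL, 37.2 ± 1.65 CPM in PBL and 56.3 ± 3.36 CPM in PBP. It was named after its values were seen and left the set without PL 3_4, LBL 1_2 or LL 3_4.

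Some members stayed below PBS at the second challenge in at least 1 arm. The Crybb1 promoter (chr5:112255511-112255835) had 16.1 and 19.6 CPM in LL, 11.5 and 11 CPM in PL, and 24.8 and 24.7 CPM in PP. It had 27.1 and 27.7 CPM in LBL, 7.27, 10.2 and 12.3 CPM in PBL, and 24.8 and 35.7 CPM in PBP. LL lay between PL and PP without overlap, and LL minus PP was -0.45, while LBL minus PBP was -0.14. The Tifab promoter (chr13:56178741-56179081) averaged 19.8 ± 0.475 CPM in LL, 12.4 ± 0.433 CPM in PL and 19.5 ± 1.68 CPM in PP, and 18.2 ± 2.996 CPM in LBL, 11.8 ± 1.58 CPM in PBL and 26.1 ± 1.8 CPM in PBP (SD, n = 3 for PBL and 2 for each other group). PBP was above LBL in both libraries. An intron 3 peak of Vsir, which encodes the checkpoint protein VISTA (chr10:60362072-60362751), had 43.4 and 46.7 CPM in LL, 36.3 and 30.9 CPM in PL, and 52.3 and 59.6 CPM in PP. It had 56.5 and 43.6 CPM in LBL, 30.8, 32.3 and 26.5 CPM in PBL, and 69.3 and 75.2 CPM in PBP. The second challenge was between the first and PBS in both arms. Vsir was named after its values were seen.

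The Toll-like receptor promoters had other PBS levels. Tlr6 (chr5:64959989-64960208) had 14.2 and 17 CPM in LL, 11.8 and 10.7 CPM in PL, and 10.2 and 8.58 CPM in PP. It had 17.1 and 10.1 CPM in LBL, 7.62, 9.77 and 8.66 CPM in PBL, and 13.6 and 13.7 CPM in PBP. PL was above PP, and PBL was below PBP. Tlr3 (chr8:45410159-45410480) averaged 17.5 ± 4.69 CPM in LL, 12.7 ± 6.62 CPM in PL and 14 ± 3.78 CPM in PP, and 21 ± 2.28 CPM in LBL, 12.7 ± 3.09 CPM in PBL and 14.9 ± 0.475 CPM in PBP (SD, n as above). LL and PL libraries overlapped at Tlr3.

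The 45 peaks near PBS at the first challenge and above it at the second had medians of 21.8 CPM in LL, 13.6 CPM in PL and 12.7 CPM in PP, and 22.3 CPM in LBL, 13.7 CPM in PBL and 13.9 CPM in PBP. Il12a encodes the p35 subunit of interleukin 12, and an intergenic peak 23944 bp upstream of it (chr3:68666421-68666700) had 22.6 and 16.8 CPM in LL, 8.86 and 6.99 CPM in PL, and 10.2 and 8.08 CPM in PP. It had 17.4 and 18.4 CPM in LBL, 7.96, 12 and 10.5 CPM in PBL, and 9.38 and 9.87 CPM in PBP. All 4 second-challenge libraries exceeded all 9 others. This was 1 of the 2 members called in LL vs PL, with a log2 fold change of 1.31 and an adjusted p of 0.0369 by edgeR, on the contrast that chose it.

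The promoter of Nfam1, a receptor that signals through an ITAM (chr15:83030896-83031252), had 20.6 and 24.6 CPM in LL, 13.3 and 12.6 CPM in PL, and 6.47 and 13.6 CPM in PP. It had 26.5 and 21.7 CPM in LBL, 12.5, 16.1 and 11.2 CPM in PBL, and 10.9 and 15.2 CPM in PBP. The second-challenge libraries were again the highest 4. An intron 2 peak of Klhl6 (chr16:19960623-19961043) averaged 16.1 ± 0.709 CPM in LL, 8.86 ± 4.18 CPM in PL and 10.4 ± 3.21 CPM in PP, and 20.9 ± 2.14 CPM in LBL, 9.99 ± 4.56 CPM in PBL and 7.88 ± 1.74 CPM in PBP (SD, n = 3 for PBL and 2 for each other group). The Klhl6 intron was thus near the first-challenge level after PBS, and the mean of its promoter near the second. An intron 1 peak of Kcnq3, a potassium channel subunit (chr15:66272300-66272796), averaged 21.8 ± 0.462 CPM in LL, 10.4 ± 1.1 CPM in PL and 13.1 ± 2.08 CPM in PP, and 27.8 ± 3.73 CPM in LBL, 15.4 ± 3.72 CPM in PBL and 11.9 ± 3.57 CPM in PBP.

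The strongest peaks of this pattern lay in intron 10 of Nfia, a transcription factor (chr4:98091248-98092148), 37527 bp upstream of Tnfsf8, the CD30 ligand (chr4:63898874-63899545), and 12126 bp upstream of 4921509O07Rik (chr13:113514970-113515605). The Nfia peak, 180215 bp from the start site, averaged 58.3 ± 4.85 CPM in LL, 41.3 ± 2.57 CPM in PL and 40.8 ± 5.13 CPM in PP, and 60.9 ± 6.67 CPM in LBL, 37.9 ± 3.23 CPM in PBL and 36.9 ± 4.72 CPM in PBP (SD, n as above). The Tnfsf8 peak averaged 40.2 ± 1.31 CPM in LL, 28.7 ± 11.8 CPM in PL and 23.8 ± 9.23 CPM in PP, and 44.2 ± 2.25 CPM in LBL, 31.2 ± 9.61 CPM in PBL and 31.3 ± 10.01 CPM in PBP. At Tnfsf8 the second-challenge libraries were above the others of their arm. The 4921509O07Rik peak averaged 39.6 ± 2.995 CPM in LL, 28.4 ± 0.313 CPM in PL and 25 ± 0.413 CPM in PP, and 46 ± 8.06 CPM in LBL, 26.6 ± 4.77 CPM in PBL and 32.2 ± 2.78 CPM in PBP. Of the genes with 3 or more members, 4921509O07Rik, Ly86 and Slc1a3 had 3 each. Ly86, whose product MD-1 partners RP105, had its nearest member 11195 bp upstream (chr13:37333410-37334013), at 47.4 ± 2.45 CPM in LL, 35.1 ± 0.957 CPM in PL and 20.9 ± 0.221 CPM in PP, and 40.5 ± 2.1 CPM in LBL, 28.8 ± 2.3 CPM in PBL and 26 ± 0.349 CPM in PBP. That peak was lowest after PBS and highest at the second challenge in both arms. The other Ly86 members were not lowest after PBS. At chr13:37218618-37219121 PL minus PP was -0.0017 and PBL minus PBP -0.43, and at chr13:37330889-37331370 they were -0.18 and -0.16.

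The 15 peaks above PBS at the first challenge and higher again at the second had medians of 25.8 CPM in LL, 15.6 CPM in PL and 8.77 CPM in PP, and 25.3 CPM in LBL, 18.2 CPM in PBL and 9.21 CPM in PBP. Zbtb16, which encodes the zinc-finger factor PLZF, had a pair of them. The intron 3 peak (chr9:48723398-48723981, 111964 bp from the start site) had 46.2 and 44.5 CPM in LL, 25.1 and 31.7 CPM in PL, and 5.39 and 5.55 CPM in PP. It had 45.2 and 37.8 CPM in LBL, 17.7, 20.2 and 24.5 CPM in PBL, and 5.14 and 6.46 CPM in PBP. The 3 states did not overlap, within or across arms.

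The intron 2 peak of Zbtb16 (chr9:48744940-48745377) had 32 and 36.1 CPM in LL, 14.8 and 16.4 CPM in PL, and 1.62 and 2.02 CPM in PP. It had 28.1 and 19.6 CPM in LBL, 19.4, 12.7 and 13.5 CPM in PBL, and 4.84 and 2.28 CPM in PBP. LBL and PBL nearly met, and the peak left the set without LBL 1_2. It was the other member called in LL vs PL (log2 fold change 1.15, edgeR adjusted p = 0.0147), again on the contrast that chose it. An intronic peak 83954 bp from the start of Klf9, a Krüppel-like factor (chr19:23056854-23057272), averaged 23.2 ± 3.03 CPM in LL, 15.1 ± 1.37 CPM in PL and 3.4 ± 0.525 CPM in PP, and 22.5 ± 4.74 CPM in LBL, 16.4 ± 2.34 CPM in PBL and 3.53 ± 1.99 CPM in PBP (SD, n = 3 for PBL and 2 for each other group). The Zbtb16 and Klf9 peaks were named after their values were seen.

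The strongest peaks of this pattern lay 5660 bp from the start of Pts, an enzyme of tetrahydrobiopterin synthesis (chr9:50522512-50522978), 2171 bp from that of Sla, a Src-like adaptor (chr15:66810054-66810422), and 60912 bp from that of Cebpd, the factor C/EBP delta (chr16:15948198-15948895). The Pts peak averaged 36.5 ± 0.30 CPM in LL, 25.8 ± 3.85 CPM in PL and 11.4 ± 1.69 CPM in PP, and 37.5 ± 0.374 CPM in LBL, 25.5 ± 4.94 CPM in PBL and 15.1 ± 8.14 CPM in PBP (SD, n as above). The Sla peak averaged 38.6 ± 0.913 CPM in LL, 22.5 ± 4.26 CPM in PL and 11.3 ± 2.36 CPM in PP, and 37.1 ± 2.31 CPM in LBL, 27.2 ± 6.86 CPM in PBL and 9.47 ± 1.58 CPM in PBP. Both were free of overlap between second and first challenge in each arm. The Cebpd peak averaged 34.2 ± 2.96 CPM in LL, 25.6 ± 9.43 CPM in PL and 10.2 ± 2.31 CPM in PP, and 49.8 ± 1.73 CPM in LBL, 26.8 ± 6.28 CPM in PBL and 12.8 ± 4.14 CPM in PBP, with overlap between LL and PL.

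Glucocorticoid target genes had 1 member among 63 filtered peaks within 50 kb (1.59%). It lay in intron 1 of Fkbp5, a co-chaperone of the glucocorticoid receptor (chr17:28513785-28514257), and had 35 and 42.1 CPM in LL, 29.8 and 22.8 CPM in PL, and 11.9 and 17.2 CPM in PP. It had 36.2 and 34.5 CPM in LBL, 18, 27 and 26.9 CPM in PBL, and 12.1 and 32.7 CPM in PBP. The PBP pair was wide and overlapped PBL, and all 4 second-challenge libraries were above the other 9. Without the distance limit, dropped after the values were seen, 5 of 71 peaks were members (7.04%), adding the Zbtb16 pair and the Klf9 and Cebpd peaks.

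The lists of inflammatory and interferon genes, which do not hold Il12a, had 0 members within 50 kb, where 1.37% of all filtered peaks were members. Peaks lower in both arms were 1.28% of all filtered peaks. In lists this small, 0 members is near the overall share, and nothing is read from it. Inflammatory and NF-kB target genes had 0 of 78 filtered peaks, with 5 among the peaks lower in both arms. Interferon-stimulated genes had 0 of 50 and 3 lower, disease-associated or primed microglia genes 0 of 74 and 4 lower, and antigen presentation genes 0 of 35 and 2 lower. With each library left out in turn these lists, antigen presentation aside, had at most 2 members. Negative regulators of LPS signalling had 2 members among 117 (1.71%) and 6 lower. These were the Fkbp5 peak and a peak 14749 bp from Socs3, a feedback inhibitor of cytokine receptors (chr11:117954037-117954437). The Socs3 peak averaged 18.2 ± 0.555 CPM in LL, 11.3 ± 0.357 CPM in PL and 13.1 ± 1.34 CPM in PP, and 19.979 ± 1.9 CPM in LBL, 14.9 ± 1.03 CPM in PBL and 8.44 ± 3.89 CPM in PBP (SD, n as above).

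AP-1 and immediate early genes had 1 member among 93 peaks (1.08%), 22284 bp from Batf3, a bZIP factor (chr1:191122761-191123066). Trained immunity metabolism had 1 of 82 (1.22%), in intron 1 of Rptor, the raptor subunit of mTORC1 (chr11:119615122-119615433). Proliferation genes had 1 of 35 (2.86%), at the 3' UTR of Ccnd1, which encodes cyclin D1 (chr7:144932376-144933015). The Ccnd1 peak had 29 and 32.7 CPM in LL, 19.5 and 25.5 CPM in PL, and 28 and 32.3 CPM in PP. It had 35.9 and 36.3 CPM in LBL, 21.5, 24.1 and 24.9 CPM in PBL, and 25.4 and 26.2 CPM in PBP. LL lay above PL but not above PP, whereas LBL lay above PBL and PBP. The Batf3 peak averaged 15.5 ± 3.31 CPM in LL, 10.5 ± 4.47 CPM in PL and 11 ± 1.24 CPM in PP, and 14.9 ± 5.41 CPM in LBL, 9.69 ± 2.16 CPM in PBL and 13.4 ± 0.953 CPM in PBP (SD, n as above), with overlap between second and first challenge in both arms. The Rptor peak averaged 14.6 ± 0.621 CPM in LL, 10.3 ± 4.49 CPM in PL and 11.8 ± 3.12 CPM in PP, and 15.2 ± 2.34 CPM in LBL, 11 ± 0.586 CPM in PBL and 11.7 ± 1.64 CPM in PBP.

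Markers of other cell types had 8 member peaks within 50 kb, and 5 of these small lists had a higher share of members than the homeostatic list. Border and bone marrow macrophage markers had 3 of 27 (11.1%), with 2 near the chemokine receptor gene Ccr1 and 1 near the mannose receptor gene Mrc1. Monocyte markers had 1 of 9 (11.1%), near Ccr2, and neutrophil markers 1 of 8 (12.5%), at Csf3r. Astrocyte markers had 2 of 11 (18.2%), both in intron 3 of Slc1a3, and oligodendrocyte markers 1 of 15 (6.67%), at Mbp. Endothelial and mural markers had 0 of 12, lymphocyte markers 0 of 11 and neuron markers 0 of 3. The list of microglia markers had 1 of 36 (2.78%), the Siglech peak. The Mrc1 peak (chr2:14340355-14340753) averaged 35.2 ± 2.37 CPM in LL, 25.9 ± 6.62 CPM in PL and 25.9 ± 6.18 CPM in PP, and 43.9 ± 0.0847 CPM in LBL, 29.1 ± 3.83 CPM in PBL and 34.3 ± 7.88 CPM in PBP (SD, n as above). The Ccr2 peak (chr9:124071506-124071808) averaged 19.3 ± 2.91 CPM in LL, 12.7 ± 0.346 CPM in PL and 12.9 ± 6.12 CPM in PP, and 19.4 ± 0.00453 CPM in LBL, 13.3 ± 1.93 CPM in PBL and 18.6 ± 5.36 CPM in PBP.

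Promoter accessibility was summed over each of these lists, for the genes with a promoter peak. Over 5 of 15 border macrophage genes it was 149 to 174 CPM in LL and 165 to 166 CPM in PL, and 182 to 190.4 CPM in LBL and 162 to 170.2 CPM in PBL, so LBL was above PBL while LL and PL overlapped. Over 5 of 11 monocyte genes it was 79.4 to 92.6 CPM in LL and 93.3 to 106 CPM in PL, and 105 to 107 CPM in LBL and 93.8 to 123 CPM in PBL, so LL was below PL. Over 2 of 14 neutrophil genes it was 34.5 to 41.96 CPM in LL and 38.7 to 39.2 CPM in PL, and 48.8 to 49.4 CPM in LBL and 44.3 to 51.1 CPM in PBL. Cd163, Lyve1, Pf4, Ccr2, Ly6c2, Ly6g, S100a8 and S100a9 had no promoter peak. Over 3 of 9 astrocyte genes it was 74.2 to 81.2 CPM in LL and 69.6 to 75 CPM in PL, and 76.1 to 90.1 CPM in LBL and 60.6 to 75.4 CPM in PBL, with overlap in the vehicle arm only. Over 5 of 11 oligodendrocyte genes it was 72.2 to 80.4 CPM in LL and 68.5 to 80.05 CPM in PL, and 72.4 to 82.1 CPM in LBL and 69.6 to 83.1 CPM in PBL. Gfap, Aqp4 and Mag had no promoter peak. Over 3 of 15 lymphocyte genes it was 72.5 to 88.2 CPM in LL and 91.3 to 93.05 CPM in PL, and 70.4 to 73.5 CPM in LBL and 74.5 to 91.2 CPM in PBL. The 1 neuron gene of 12 with a promoter peak had 12.2 to 14.6 CPM in LL and 15.04 to 16.2 CPM in PL, and 9.32 to 12.6 CPM in LBL and 14.5 to 18.9 CPM in PBL. Lymphocyte and neuron sums were thus lower at the second challenge in both arms without overlap. Over 5 of 12 endothelial and mural genes the sum was 118 to 121 CPM in LL and 121 to 146 CPM in PL, and 119 to 125 CPM in LBL and 109 to 133 CPM in PBL, with overlap in both arms. Cd3e, Rbfox3, Snap25, Pecam1 and Cldn5 had no promoter peak. The part of other cells in the members' values was not tested.

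The remaining members among the 15 with the largest smaller difference had none of the 3 patterns. One lay in intron 2 of Cdrt4os1, a non-coding gene (chr11:62997538-62998205), with 22.6 and 20.04 CPM in LL, 12.7 and 10.2 CPM in PL, and 17.8 and 26.8 CPM in PP. It had 29.1 and 16.6 CPM in LBL, 12.5, 13.4 and 11 CPM in PBL, and 27.8 and 37.2 CPM in PBP. The first-challenge libraries were the lowest 5 there. In intron 1 of Ubash3b, a phosphatase that dampens receptor signalling (chr9:41149912-41150253), the peak averaged 19.6 ± 5.2 CPM in LL, 10.7 ± 1.52 CPM in PL and 21.7 ± 4.32 CPM in PP, and 16.4 ± 1.47 CPM in LBL, 8.95 ± 2.95 CPM in PBL and 22.5 ± 5.75 CPM in PBP (SD, n as above). In intron 1 of Morn3 (chr5:123027555-123027917) it averaged 22.7 ± 1.23 CPM in LL, 11.6 ± 1.57 CPM in PL and 20.8 ± 1.25 CPM in PP, and 23.8 ± 4.03 CPM in LBL, 13.2 ± 1.94 CPM in PBL and 17.6 ± 5.04 CPM in PBP. The intergenic peak at chr11:20466023-20466292, 76961 bp from Sertad2, averaged 19.2 ± 3.69 CPM in LL, 10.6 ± 1.71 CPM in PL and 8.8 ± 2.54 CPM in PP, and 15.2 ± 4.14 CPM in LBL, 6.64 ± 1.28 CPM in PBL and 9.25 ± 4.1 CPM in PBP. It was the only one of the 15 that left the set when a library was left out, namely LBL 3_4, LL 1_2 or LL 3_4.

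In intron 2 of Igf1r, the receptor of insulin-like growth factor 1 (chr7:68144861-68145386), the peak had 21.4 and 23 CPM in LL, 12.4 and 12.4 CPM in PL, and 14.5 and 14.1 CPM in PP. It had 25.2 and 16.9 CPM in LBL, 10.7, 12 and 12.6 CPM in PBL, and 19.4 and 23.2 CPM in PBP. Both PBP libraries were above both PP libraries, with a log2 fold change of 0.54 and an edgeR adjusted p of 0.614. The strongest members outside the patterns lay at chr6:95452072-95452527, 118079 bp from AY512915, at chr7:121516695-121517882, 71952 bp from 4933432K03Rik, and 25461 bp from Adrb1, a beta-adrenergic receptor gene (chr19:56747660-56748392). The peak on chromosome 6 had 65.8 and 68.9 CPM in LL, 38.4 and 43.8 CPM in PL, and 22.1 and 37.4 CPM in PP. It had 70.4 and 61.9 CPM in LBL, 34.6, 41.6 and 39.3 CPM in PBL, and 33 and 49.4 CPM in PBP. Its second-challenge libraries were the highest 4. The peak on chromosome 7 had 50.6 and 59.3 CPM in LL, 31 and 44.1 CPM in PL, and 70.6 and 70.2 CPM in PP. It had 47.5 and 45.6 CPM in LBL, 32.2, 30.9 and 34.6 CPM in PBL, and 68.4 and 77.5 CPM in PBP. PBS was the highest state at this peak in both arms. The Adrb1 peak averaged 56.9 ± 0.276 CPM in LL, 40.6 ± 2.25 CPM in PL and 40.9 ± 11.5 CPM in PP, and 58.2 ± 1.005 CPM in LBL, 43.4 ± 7.43 CPM in PBL and 49.6 ± 7.23 CPM in PBP (SD, n as above).

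PBP vs PP, depletion and repopulation against vehicle with no LPS, compared groups that entered neither difference of the rule. Their libraries did count towards the minimum mean count over the 13 libraries. Both PBP libraries were isolated on one day and both PP libraries on another, so depletion and day cannot be told apart here. No member was called. edgeR called 0 higher and 0 lower at an adjusted p under 0.05, where 0.064% and 0.096% of 37516 peaks were called, and the smallest adjusted p of a member was 0.115. At an unadjusted p under 0.05, edgeR had 29 members higher and 7 lower (10.4% of members, against 9.73% of all tested peaks), and DESeq2 called 0 with 9 and 3 at that level. The members' median log2 fold change was 0.16, against a median of -0.0013 over all tested peaks. The mean was higher in PBP at 233 of 346 members (67.3%), against 49.9% of filtered peaks.

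LBL vs LL, the second challenge with and without repopulation, compared 2 groups that the rule both placed on its high side, on 1 sorter. edgeR called 0 members higher and 0 lower, where 0.024% and 0.0267% of peaks were called, with 12 and 6 at an unadjusted p under 0.05 (5.20% against 8.06%) and a median log2 fold change of 0.05. DESeq2 called 0, with 2 and 2 at that level. PBL vs PL, the first challenge with and without repopulation, crossed sorters and days. Here edgeR called 0 higher and 0 lower, where 0.0613% and 0.0213% were called, with 10 and 6 at an unadjusted p under 0.05 (4.62% against 10.8%), and DESeq2 called 0 with 3 and 3. Without PL 1_2, 2 members were called lower in PBL. Each of these contrasts compared groups that the rule placed on the same side, so nothing is read from their low shares. These misses do not show that the arms were alike.

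The difference between arms was tested as an interaction term in edgeR. Both contrasts contain groups that chose the members, and the rule required a second-minus-first difference of 0.4 or more in both arms, so nothing is read from the low count there. For second minus first edgeR called 0 members, where 0% of tested peaks were called, with 2 higher and 0 lower in the BLZ945 arm at an unadjusted p under 0.05 (0.578% of members, against 6.92% of all tested peaks) and a smallest adjusted p of 0.599. For first minus PBS it called 0, where 0.0746% were called, with 5 higher and 18 lower at that level (6.65%, against 11.1%) and a smallest adjusted p of 0.116.

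Which peaks met the rule depended on single libraries. When each of the 13 libraries was left out in turn, 66 members (19.1%) met it every time, among them 14 of the 15 with the largest smaller difference. The 66 included the Gfm2 exon, both Klhl6 peaks, the Mertk intron 1 peak, Zbtb16 intron 3, and the Crybb1 and Tifab promoters. Without PL 3_4, whose share of counts in promoter peaks was lowest, 665 peaks met it, of which 288 were members, and without PL 1_2 there were 370, of which 210 were.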

How the data were processed

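ATAC-seq was done on 13 microglia libraries in 6 groups. The deposited table holds estimated counts that are not normalized and come in steps of 0.5; per the submitters' processing notes, Bowtie2 2.2.6, MACS2 2.1.1, HOMER 4.9.1 and ChIPseeker 1.38 were among the tools, with GRCm38 (mm10) as the build. The counting tool and any shift of read ends are not given in the sources used here. CPM was computed here from the deposited counts over all 38620 peaks. Counts were rounded to whole numbers and tested in R 4.3.3 with edgeR 4.0.16: filterByExpr at a minimum count of 10 (37516 peaks kept, all 346 members among them), TMM scaling, 6 group means over the 13 libraries, robust quasi-likelihood F tests, two-sided, with Benjamini-Hochberg adjustment over all tested peaks. DESeq2 1.42.0 was an alternative.

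The members and the gene lists were chosen with earlier results of these data known. Named are the 15 members with the largest smaller difference and no overlap of libraries in either arm (1 per gene), those next to the threshold, those within 50 kb of listed genes, the 3 strongest per pattern and genes with 3 or more members; exceptions are marked. Some genes are not reported here and were left out of the lists. Members called in PBP vs PP or LBL vs LL would also have been named, and there were 0. Peak sequences were not used here, and RefSeq promoter windows were read instead. Deviations from group means were correlated between libraries with the same number (median r 0.0136 over 30 pairs, highest 0.240). In a group of 2 libraries these deviations are equal and opposite. Pairs between such groups therefore repeat each other's r, and the 30 are not independent checks. Replicates are pools of 2 animals, and p-values measure the spread between pools, not between single animals. Except in PL, the pools of a group were isolated on the same day, so spread between days is hardly in it.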

Additional observations from a re-analysis of the deposited data

How the results depend on the processing

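The number of members followed its limits. It was 776 with no count minimum, 49 with a mean count of 50 or more, 822 at a difference of 0.3 and 136 at 0.5, while TMM scaling gave 352, pseudocounts of 0.5 and 2 gave 375 and 302, and averaging log2 values gave 378. Leaving out 1 library at a time gave 334 (without LBL 1_2) to 665 (without PL 3_4). The share below PBS at the first challenge and back at the second was 28.6% with a mean count of 50 or more and 12.9% to 20.0% over left-out libraries, against 16.8% with all. The share above PBS at the second challenge alone was 9.86% to 17.9% over left-out libraries, against 13.0%. The share above PBS at the first challenge and higher again was 2.04% with a mean count of 50 or more, against 4.34%. The cause of these changes was not tested.

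For PBP vs PP none of the alternatives run called a member. For LBL vs LL 1 member was called higher when only these 2 groups entered the fit, where 94 peaks were called in all, against 19 with all groups. For PBL vs PL 0 to 2 members were called lower over left-out libraries, the 2 without PL 1_2, where 1010 peaks were called in all, against 31. The fit with a replicate block called 0 members in all 3 comparisons, while over all peaks it called 107 in PBP vs PP (60 without the block), 37 in LBL vs LL (19) and 26 in PBL vs PL (31). Of the 30 pairs of libraries with the same number, 4 correlated over 0.1, and the highest r was 0.240. Pairs between groups of 2 libraries repeat each other's r, so these counts hold duplicates. Averaging the LBL pair, or PBL 3_4 and 4_5, into 1 library was chosen after seeing the data and also called 0 members; adding the PBL pair together gave 375 members. With 2 or 3 pools per group and a median of 29.5 counts, counting noise limits each single-peak value.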
